A study of Mus musculus with 8 samples.

Results

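Osteopontin, its receptor CD44 and 5 further glycoprotein and lectin genes were followed in osteoclasts that lack ELMO1 and in osteoclasts that keep 1 intact copy of its gene. The 7 genes, Spp1, Cd44, Gpnmb, Lgals3, Sparc, Fn1 and Thbs1, were chosen by name, with earlier results of these data known. They were matched to Ensembl identifiers in a table of 46517 genes, of which 14139 had enough reads to be tested. All 7 were found and all 7 were tested. Bone marrow was taken from the femurs of mice 6 to 8 weeks old, either Elmo1-/- throughout the body or Elmo1+/-, with 4 mice per genotype and 1 library per mouse. The marrow was first cultured for 16 h. By the labels the suspension cells then received 10% L929-conditioned medium, a source of M-CSF, together with GST-RANKL at 50 ng/ml for 7 days, while the methods of the study place a stage with L929-conditioned medium alone before RANKL. RANKL and M-CSF are the cytokines that turn marrow macrophage precursors into osteoclasts, the multinucleated cells that dissolve bone. The Elmo1+/- mice are the controls, although the titles of their libraries call them wild-type. Since both groups carry at least 1 disrupted copy, there were no animals with 2 intact copies in these libraries. The deletion is present in every cell of the Elmo1-/- mouse, so the precursors lacked Elmo1 before culture as well.

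Osteopontin, encoded by Spp1, is an acidic phosphoprotein that osteoclasts secrete and that binds integrins through an RGD motif, and it can also engage CD44, the cell surface receptor for hyaluronan. Fibronectin (Fn1) is a large adhesive protein of the matrix that is bound by integrins as well. Thrombospondin-1 (Thbs1) and SPARC, also known as osteonectin, are matricellular proteins, that is, secreted proteins that modulate how cells interact with the matrix rather than forming its scaffold. GPNMB, or osteoactivin, is a transmembrane glycoprotein of macrophages and osteoclasts, and galectin-3 (Lgals3) is a lectin that binds galactoside sugars on glycoproteins. ELMO1 acts with DOCK proteins to activate the GTPase Rac. The comparison asked whether loss of ELMO1 goes with a change in the mRNA of these genes in cultured osteoclasts. By immunoprecipitation of ELMO1 and mass spectrometry the study found CD44 and GPNMB among the surface proteins associated with ELMO1. That is a result on protein binding and not on mRNA level. Spp1 stands on a list of changed genes that the study drew from these same libraries. Neither the direction of Spp1 here nor its unadjusted p-values are therefore independent of that list.

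The bases before the transcription start are shown for 3 of the genes, Spp1, whose groups did not overlap, Gpnmb, another abundant gene whose groups did, and Cd44, which followed the replicate numbers described below. The sequences are from RefSeq (GRCm38.p6), run 5′ to 3′ on the strand of the gene, and end on the base before the start. Spp1 lies at chr5:104434861-104435110 on the plus strand, Gpnmb at chr6:49036268-49036517 on the plus strand and Cd44 at chr2:102901666-102901915 on the minus strand. Capitals mark letters that match ACCACA, a core bound by RUNX factors, or GAGGAA, a core bound by ETS factors such as PU.1, on either strand.
Spp1: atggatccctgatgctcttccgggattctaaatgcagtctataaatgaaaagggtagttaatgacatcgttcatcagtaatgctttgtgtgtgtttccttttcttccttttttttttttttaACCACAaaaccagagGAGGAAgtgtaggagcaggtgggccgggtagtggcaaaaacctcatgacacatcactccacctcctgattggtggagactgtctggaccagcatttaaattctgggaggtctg
Gpnmb: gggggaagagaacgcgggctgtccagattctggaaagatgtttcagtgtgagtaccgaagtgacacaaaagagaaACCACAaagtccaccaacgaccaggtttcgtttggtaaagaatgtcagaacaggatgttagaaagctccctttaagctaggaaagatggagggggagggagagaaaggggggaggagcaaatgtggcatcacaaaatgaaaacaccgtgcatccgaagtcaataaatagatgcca
Cd44: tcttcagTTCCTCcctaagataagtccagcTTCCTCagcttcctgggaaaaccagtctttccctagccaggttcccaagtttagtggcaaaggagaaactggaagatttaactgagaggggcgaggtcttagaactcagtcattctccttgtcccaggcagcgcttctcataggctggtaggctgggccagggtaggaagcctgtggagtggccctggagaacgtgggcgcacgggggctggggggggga
In the Spp1 window ACCACA stood at positions −128 to −123 and GAGGAA at positions −113 to −108 from the start. Gpnmb held ACCACA at positions −175 to −170, and Cd44 held GAGGAA on the other strand, printed as TTCCTC, at positions −243 to −238 and −220 to −215. Of 32851 windows of 250 bases before a gene start, 14.0% held ACCACA and 23.3% held GAGGAA, so these letters are common. The AP-1 letters TGANTCA and the E-boxes CACGTG and CATGTG, searched on both strands, were in none of these 3 windows and in 6.75%, 6.02% and 12.3% of all of them. No searched motifs overlapped in the printed windows. RefSeq windows were matched for 5 of the 7 genes, the other two being Fn1 and Thbs1.

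The reads on genes lay between 20905502 and 40846651 per library. Elmo1, the deleted gene, had normalized counts of 274 to 316 in the Elmo1-/- libraries and 1423 to 1769 in the Elmo1+/- libraries, with a log2 difference of −2.44 ± 0.09 (SE, n = 4 mice per genotype; limma, adjusted p = 8.4e-06), so every library matched its genotype label. Normalized counts are reads divided by 1 size factor per library. All 10 osteoclast markers passed the filter, at levels from 3.47 RPKM for Calcr in Elmo1-/- mouse 1 upwards. Ctsk, the collagen-degrading protease of osteoclasts, had between 1375 and 6935 RPKM, which are reads per kilobase of exon scaled to the depth of the library. Along a first principal component with 62.3% of the variance, the libraries numbered 1 and 2 lay below those numbered 3 and 4 in both genotypes. The Elmo1+/- libraries 1 to 4 lay at −23.1, −26.3, 31.9 and 24.9. In Elmo1-/- the split was uneven, with mouse 1 at −52.3, mouse 2 between at −6.03, and mice 3 and 4 at 26.4 and 24.7. All 10 osteoclast markers were higher in each of the 4 libraries numbered 3 or 4 than in each of those numbered 1 or 2, and their summed level was 5040 to 8591 RPKM against 14652 to 16333 RPKM. What the numbers stand for was not given in the sources used here. Values within each pair of numbers are given beside the results. In bulk RNA of a culture, fewer cells of a type and less RNA per cell cannot be told apart.

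Per kilobase of exon, Spp1 was the most abundant of the 7 mRNAs and the order spanned over 3 orders of magnitude. Spp1 reached 2116 ± 372 RPKM (SD over 8 libraries) and ranked 16 of the 46005 genes with an annotated exon length. Of all genes in the table, 24638 had any reads. Lgals3 followed at 990 ± 116 RPKM, rank 34, and Gpnmb at 729 ± 69 RPKM, rank 54. Cd44 had 55.7 ± 14.3 RPKM, rank 1014. Thbs1 had 16.0 ± 2.5 RPKM, rank 3231. Sparc and Fn1 were at the bottom with 2.57 ± 0.73 and 1.59 ± 0.52 RPKM, ranks 8903 and 10066. The lowest Spp1 library, at 1541 RPKM, stood above the highest Lgals3 library, at 1215 RPKM, and likewise Gpnmb above Cd44, Cd44 above Thbs1 and Thbs1 above Sparc did not overlap. Lgals3 and Gpnmb overlapped in range, although Lgals3 was higher within each of the 8 libraries. Sparc and Fn1 also overlapped, with Sparc higher within each of the 8. With the longest transcript as the length in place of merged exons, Lgals3 and Gpnmb came to 1296 and 1283 RPKM, so that their order is not settled by these data. The 7 genes took 0.959% to 1.18% of all reads on genes.

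**Figure D1:**
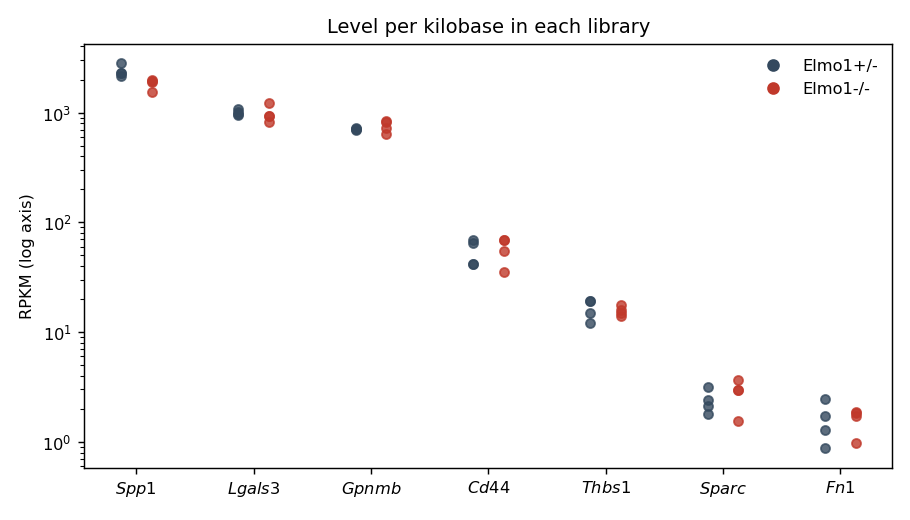
Level of each gene per kilobase of merged exon, scaled to library depth (RPKM, log axis), 1 point per library, with the 4 Elmo1+/- libraries at the left and the 4 Elmo1-/- libraries at the right of each gene. Spp1 lies at 1541 to 2815 RPKM and Fn1 at 0.871 to 2.47 RPKM, and only the pairs Lgals3 with Gpnmb and Sparc with Fn1 overlap among neighbours.

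Spp1 mRNA was lower in every Elmo1-/- library than in every Elmo1+/- library. Spp1 (ENSMUSG00000029304, chr5:104435118-104441050, plus strand, GRCm38) had normalized counts of 110086, 77968, 97865 and 102144 in Elmo1-/- mice 1 to 4. In Elmo1+/- mice 1 to 4 it had 153005, 113327, 120033 and 116675. The groups did not overlap, but they came close, since Elmo1-/- mouse 1 and Elmo1+/- mouse 2 were neighbours, and Elmo1+/- mouse 1 stood well above the other controls. The means were 97016 ± 13671 and 125760 ± 18368 (SD, n = 4), and the log2 difference was −0.38 ± 0.14 (SE), a level 0.771 times that of the controls with a 95% interval of 0.619 to 0.961. The exact two-sided permutation test over the 70 arrangements of the mice gave p = 0.0286, the smallest it can give. It treats the mice as unpaired, as does the limma test. With genotypes exchanged only within the 4 pairs of the same replicate number, an alternative added after the data were seen, Spp1 was lower in Elmo1-/- in 4 of 4 pairs and the exact permutation p was 0.125, again the smallest that its 16 arrangements can give.

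This difference did not pass the test across all genes. By limma the Benjamini-Hochberg adjusted p of Spp1 over the 14139 genes was 0.9999, from an unadjusted p of 0.0255. By that adjusted p only 0.00707% of genes tested were called, which was Elmo1 alone, and by an unadjusted p under 0.05 it was 0.941%. This last share is smaller than a threshold of 0.05 would give on average if no gene changed. Genes vary together along the first component, so 1 such share cannot show whether the limma test was conservative, and this was not tested. Groups that did not overlap were also found for 0.941% of genes, and for 0.439% in the direction of Spp1. Among all genes tested, 51 had a smaller p than Spp1 and 670 a larger absolute difference. The log2 difference of Spp1 was −0.51 in libraries numbered 1 and 2 and −0.24 in those numbered 3 and 4. Without Elmo1+/- mouse 1 it was −0.28 with an unadjusted p of 0.0706, and without Elmo1-/- mouse 2 it was −0.27 with an unadjusted p of 0.0704, both from limma.

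Spp1 did not follow the osteoclast markers across the replicate numbers. Its log2 difference between libraries 3 and 4 and libraries 1 and 2 was −0.02, with 0.11 in the Elmo1-/- and −0.15 in the Elmo1+/- libraries, while the median of the 10 osteoclast markers moved by 1.17. Elmo1-/- mouse 1, the library with the lowest summed osteoclast markers at 5040 RPKM, was the highest in Spp1 of its genotype. Spp1 shares 309 bases of exon with Gm42793, an unclassified gene model on the same strand, which had 122 reads in all against 912452 for Spp1. Counting error was at most 0.392% of a Spp1 value, against an SD between libraries of 14.1% (Elmo1-/-) and 14.6% (Elmo1+/-) of the mean.

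**Figure D2:**
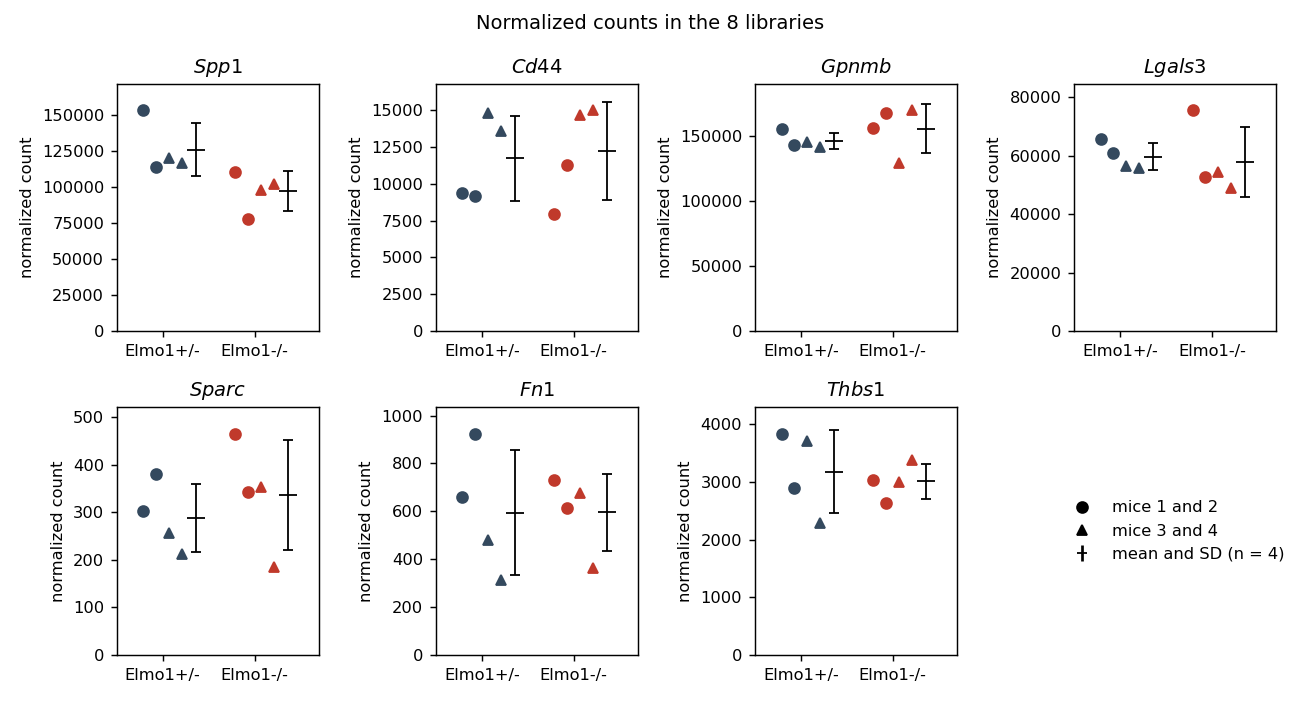
Normalized counts of the 7 genes, 1 point per mouse (circles for mice 1 and 2, triangles for mice 3 and 4), with the mean and SD of 4 mice per genotype at the right of each group. In Spp1 the 4 Elmo1-/- values, 77968 to 110086, lie below the 4 Elmo1+/- values, 113327 to 153005, and in the other 6 genes the groups overlap.

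Cd44 mRNA was ordered by the replicate number, as was a large share of all genes, and its genotypes overlapped. Cd44 (ENSMUSG00000005087, chr2:102811141-102901665, minus strand) had normalized counts of 7950, 11288, 14649 and 14984 in Elmo1-/- mice 1 to 4. The Elmo1+/- mice had 9337, 9132, 14779 and 13598. In both genotypes the libraries numbered 3 and 4 were higher than those numbered 1 and 2, by a log2 difference of 0.65 in Elmo1-/- and 0.62 in Elmo1+/-. Cd44 was the one gene of the 7 for which all 4 libraries numbered 3 or 4 lay above the others. The split of the libraries was itself seen in these data, so no test was made. Of all genes tested 18.1% were ordered in this way and 15.8% in the opposite way, so this order does not set Cd44 apart. Between genotypes the log2 difference was 0.05 ± 0.24 (limma, adjusted p = 0.9999; exact permutation p = 0.886, n = 4), with a 95% interval of the ratio from 0.714 to 1.5. Within numbers 1 and 2 it was 0.04 and within 3 and 4 it was 0.06. The osteoclast marker Itgb3, the integrin β3 subunit of the αvβ3 receptor for osteopontin, had 20.5 to 36.8 RPKM in libraries 1 and 2 and 45.1 to 70.8 RPKM in libraries 3 and 4. Its part in the Cd44 pattern was not tested. Of the 9 Cd44 transcripts in the annotation none can be told apart here, since reads were counted per gene.

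Gpnmb and Lgals3, the other abundant genes of the 7, had overlapping groups. Gpnmb (ENSMUSG00000029816, chr6:49036546-49070929, plus strand) had normalized counts of 156268, 168065, 129405 and 170197 in Elmo1-/- mice 1 to 4. In Elmo1+/- mice it had 155736, 143224, 145573 and 141778. The controls lay close together, at 4.30% of their mean, inside the range of the Elmo1-/- mice, whose spread was 12%. Its log2 difference was 0.08 ± 0.11 (limma, adjusted p = 0.9999; exact permutation p = 0.486, n = 4) with a 95% interval of the ratio of 0.892 to 1.26. Gpnmb moved by −0.09 between the replicate numbers.

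Lgals3 (ENSMUSG00000050335, chr14:47367751-47386160, plus strand) had normalized counts of 75546, 52608, 54315 and 48830 in Elmo1-/- mice 1 to 4 and of 65700, 60784, 56422 and 55737 in Elmo1+/- mice. Elmo1-/- mouse 1 held the highest value of all 8 and the other Elmo1-/- mice held the 3 lowest. With all mice the log2 difference was −0.06 ± 0.14 (limma, adjusted p = 0.9999; exact permutation p = 0.686, n = 4), a ratio between 0.768 and 1.19. Without Elmo1-/- mouse 1 it was −0.20 with an unadjusted p of 0.0540 and an adjusted p of 0.936 (limma). Elmo1-/- mouse 1 was also the library with the lowest osteoclast markers and the highest Lgals1, galectin-1, at 2108 RPKM. From libraries 1 and 2 to libraries 3 and 4 Lgals3 moved by −0.23 on the log2 scale.

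Thbs1 (ENSMUSG00000040152, chr2:118111876-118127133, plus strand) had normalized counts of 3041, 2629, 3008 and 3373 in Elmo1-/- mice 1 to 4. The Elmo1+/- mice had 3835, 2894, 3703 and 2293, so they held both the highest and the lowest value. The log2 difference was −0.05 ± 0.16 (limma, adjusted p = 0.9999; exact permutation p = 0.800, n = 4), with a ratio between 0.746 and 1.24. It was −0.24 in libraries 1 and 2 and 0.13 in libraries 3 and 4. Megakaryocytes and platelets are rich in thrombospondin-1, and their markers Itga2b, Gp9 and Gp1bb were too low to be tested, while Ppbp had 30.0 to 71.9 RPKM.

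Fn1 and Sparc were the lowest of the 7 and varied most over the 8 libraries, by 2.93 and 2.51 times from the lowest to the highest, against at most 1.96 times (Spp1) in the others. Fn1 (ENSMUSG00000026193, chr1:71585520-71653200, minus strand) had normalized counts of 730, 612, 676 and 364 in Elmo1-/- mice 1 to 4. It had 660, 923, 480 and 315 in the Elmo1+/- mice. Sparc (ENSMUSG00000018593, chr11:55394500-55423183, minus strand) had 464, 342, 353 and 185 in the Elmo1-/- mice and 302, 380, 256 and 211 in the Elmo1+/- mice. In both genes the lowest library of each genotype was that numbered 4. The log2 difference between genotypes was 0.06 ± 0.34 for Fn1 (limma, adjusted p = 0.9999; exact permutation p = 0.857, n = 4), with a ratio between 0.617 and 1.77. For Sparc it was 0.19 ± 0.28 (limma, adjusted p = 0.9999; exact permutation p = 0.571, n = 4), with a ratio between 0.730 and 1.77. Fn1 moved in opposite directions in libraries 1 and 2, −0.22, and in libraries 3 and 4, 0.35, and in neither pair did the genotypes separate. Depth was a smaller part of the spread, with 168 to 491 reads for Sparc and a counting error of at most 7.72%, against a spread between mice of 34.2% and 25% of the mean.

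**Figure D3:**
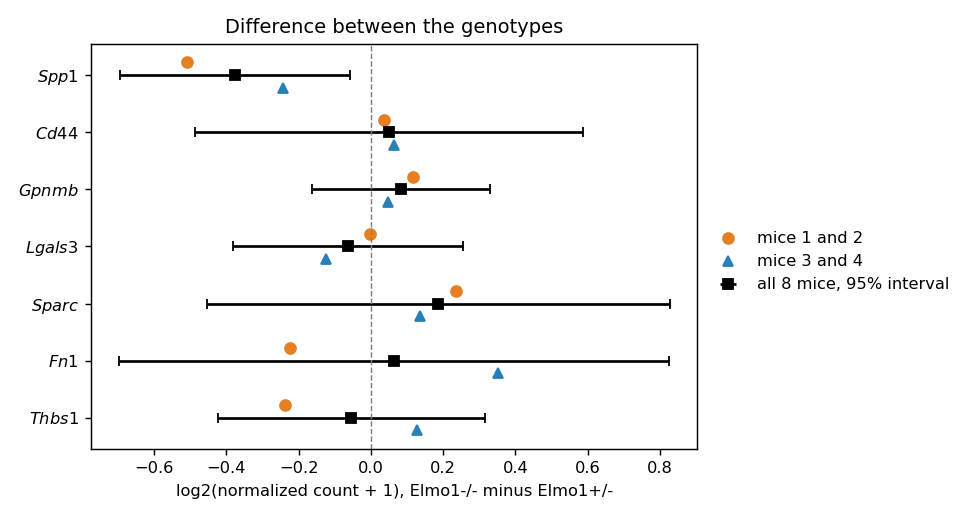
Difference between the genotypes (Elmo1-/- minus Elmo1+/-) in log2(normalized count + 1) for each gene, with squares and 95% intervals from limma for all 8 mice, circles for mice 1 and 2 alone and triangles for mice 3 and 4 alone. The interval of Spp1, −0.69 to −0.06, is the one that leaves out 0 before adjustment, and Fn1 and Thbs1 have their partial values on both sides of 0.

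The type I collagen genes and some other stromal markers were lowest in the same 2 libraries as Fn1 and Sparc, while the rest of those tested were not. Col1a1, a gene that fibroblasts and osteoblasts transcribe strongly, had 2.53, 2.03, 2.67 and 1.14 RPKM in Elmo1-/- mice 1 to 4 and 2.18, 2.53, 1.54 and 1.18 RPKM in Elmo1+/- mice. Fn1 over the same libraries had 1.87, 1.71, 1.85 and 0.981 RPKM and 1.71, 2.47, 1.29 and 0.871 RPKM. In Fn1 and Sparc, and in 5 of the 8 stromal markers tested (Col1a1, Col1a2, Col3a1, Col5a1 and Pdgfrb), the 2 libraries numbered 4 were the 2 lowest, as they were in 424 of the 14139 genes tested. In the other 3, Dcn, Lum and Col6a3, they were not, although Col6a3 had its lowest value in Elmo1+/- mouse 4, at 0.0283 RPKM. Dcn, which encodes decorin and was the highest of these markers, had 2.37 RPKM in Elmo1-/- mouse 4 and 2.71 RPKM in Elmo1+/- mouse 4, the latter the highest of the controls, and Lum had 0.800 and 0.929 RPKM, among the higher values of its range of 0.543 to 1.06 RPKM. The 12 fibroblast and stromal markers summed to 5.56 to 8.99 RPKM in Elmo1-/- and 6.20 to 8.19 RPKM in Elmo1+/- libraries. Of these 12, Pdgfra, Thy1, Fap and Cxcl12 were too low to be tested, and none was listed at 0 in all libraries. Osteoblast markers summed to at most 0.562 RPKM, with Sp7, Alpl, Bglap, Bglap2 and Ibsp below the filter. The part of stromal cells in the Fn1 and Sparc levels was not tested.

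**Figure D4:**
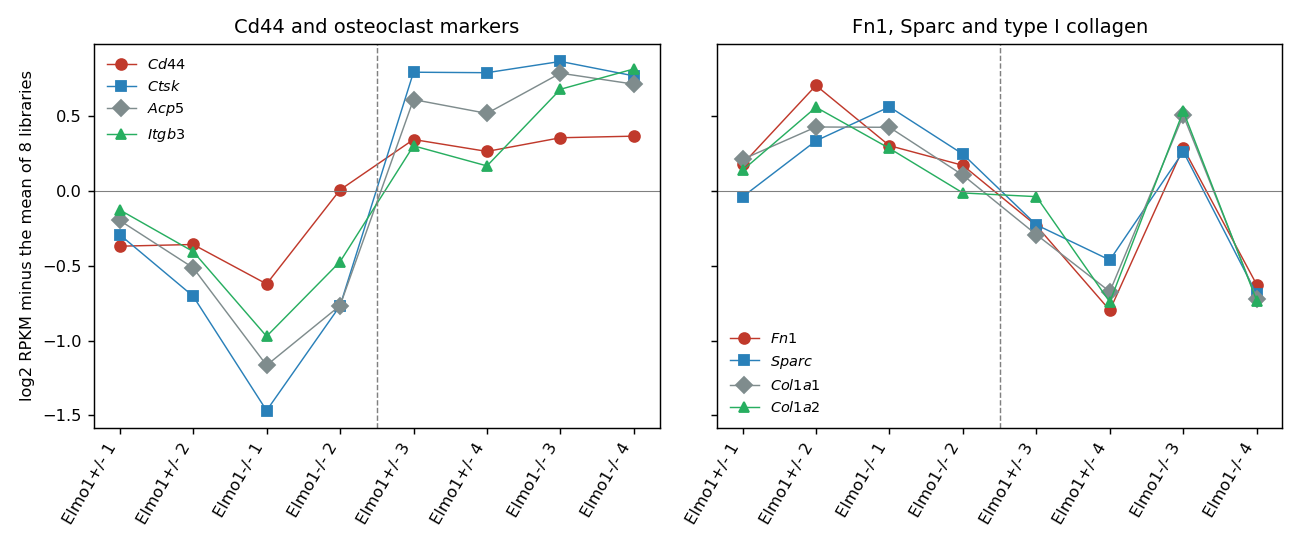
Level of Cd44 with the osteoclast markers Ctsk, Acp5 and Itgb3 (left) and of Fn1 and Sparc with Col1a1 and Col1a2 (right) in each library, as log2 RPKM minus the mean of the 8 libraries, with the dashed line between mice 1 and 2 and mice 3 and 4. Cd44 and the markers are higher at the right of the line in both genotypes, and the 2 libraries numbered 4 are the lowest for Fn1, Sparc and both collagen genes shown, but not for the stromal markers Dcn, Lum and Col6a3, which are not drawn; the lines only guide the eye.

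Log2 values were centred within libraries 1 and 2 and within libraries 3 and 4, to see which genes varied like each of the 7. Pearson's r was taken over the 8 libraries with 10901 genes of a mean normalized count of at least 100. Centring removed the mean of each set but left the genotype difference and the gap between Elmo1-/- mice 1 and 2 along the first component. The r values are therefore not free of the split. Each of the 7 had a gene with r of at least 0.961. The genes named are the highest of 10901 over only 8 libraries, and such a pick can reach a high r among unrelated genes. How high was not tested, so the values are descriptions only and do not show that the genes named vary with the 7. Fn1 was most like Col1a2 (r = 0.978), followed by the gene models Gm13342 (0.964) and Gm5576 (0.949). Spp1 was most like Pepd (0.975), which encodes the dipeptidase prolidase, Evi5l (0.974) and Tnfrsf23 (0.973). Cd44 was most like the kinase gene Map4k3 (0.994), the ubiquitin ligase gene Pja2 (0.987) and the caveolin gene Cav2 (0.985). Gpnmb was most like the chromatin remodelling gene Smarcc2 (0.970), Itpripl1 (0.948) and Fndc3a (0.937). Lgals3 was most like S100a13 (0.996), the selenoprotein gene Selenow (0.992) and the ferritin pseudogene Ftl1-ps1 (0.989). Sparc was most like Gm2991 (0.961), Thop1 (0.947) and the mitochondrial phosphatase gene Ptpmt1 (0.946), and Thbs1 was most like Zfp46 (0.980), Zc3h12a, whose product is an RNase that degrades inflammatory mRNAs (0.972), and Cd1d1 (0.966). Reads on pseudogenes and numbered gene models can be shared with near-identical copies, so those names are uncertain. Among the 7 themselves, Fn1 and Sparc varied together (r = 0.793), Lgals3 and Cd44 in opposite ways (r = −0.901), and Spp1 and Cd44 had r = −0.543.

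No gene of the receptors, enzymes and relatives around the 7 was called between the genotypes. The 9 lists held 108 genes, of which 80 were tested, 0 passed the adjusted test in limma and 0 had an unadjusted p under 0.05, the smallest being 0.0695, and in all 80 the genotypes overlapped. Over all genes tested these shares were 0.00707% called, 0.941% with an unadjusted p under 0.05 and 0.941% without overlap, so that counts of 0 among 80 do not set the lists apart. DESeq2 and edgeR on the recovered reads called none of them either, nor did any other alternative. The median log2 difference of all 14139 genes was −0.0031, and those of the lists are given beside it here.

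Of the integrin subunits that bind osteopontin and fibronectin, 9 of 10 were tested, 5 above and 4 below 0, with a median log2 difference of 0.0079. Itgb1, the β1 subunit, had the highest level at 171 RPKM and a difference of −0.05 ± 0.08 (SE). Itga9, the α9 partner of β1, had the lowest difference, −0.22 ± 0.18, and Itgb5 the highest, 0.14 ± 0.17. Of the other receptors of these proteins 10 of 11 were tested, with a median of 0.0098. Among them Cd36, the scavenger receptor bound by thrombospondin-1, was highest at 243 RPKM with −0.05 ± 0.16, and the differences ran from −0.17 ± 0.29 for the endocytic receptor Lrp1 to 0.10 ± 0.25 for the syndecan gene Sdc3.

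Genes that anchor or shed CD44 or make and degrade hyaluronan had a median of 0.03 over 11 of 14 tested. Msn, which encodes moesin, a linker of CD44 to actin, was the highest at 295 RPKM with a difference of 0.02 ± 0.16. The membrane protease gene Mmp14, whose product cleaves CD44, had 0.15 ± 0.13, and the hyaluronidase gene Hyal1 had −0.29 ± 0.52. The 3 hyaluronan synthase genes Has1, Has2 and Has3 were below the filter, with 24 to 41 reads over the 8 libraries. In this list 5 of 11 genes lay wholly higher in libraries 3 and 4, as Cd44 did, and 2 wholly lower, beside 18.1% and 15.8% of all genes tested. Other lists went both ways. Higher and lower were 2 and 1 of 9 integrin genes, 1 and 4 of 10 other receptors, and 3 and 1 of 10 osteopontin enzymes. In the lists described below they were 1 and 2 of 4 galectins, 2 and 3 of 17 matrix glycoproteins, 0 and 1 of 5 GPNMB relatives and MiT factors, and 3 and 4 of 14 TREM2-associated genes.

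Enzymes that act on osteopontin include the secretory kinase FAM20C, the osteoclast acid phosphatase TRAP, encoded by Acp5, and proteases that cleave it. Of 12 such genes 10 were tested, with a median of 0.01. Mmp9, a gelatinase and the highest of them at 3670 RPKM, had a difference of −0.03 ± 0.23. Acp5 had 2579 RPKM and −0.22 ± 0.47, and Fam20c 35 RPKM and 0.07 ± 0.10. The lowest and highest differences were −0.34 ± 0.31 for Mmp3 and 0.15 ± 0.17 for Mmp2. The other 4 genes of the osteopontin family, Ibsp, Dmp1, Dspp and Mepe, which lie with Spp1 in the group of bone and tooth phosphoproteins called SIBLING, were below the filter and summed to at most 0.0135 RPKM, and 3 of them were at 0 reads in all libraries.

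Of the galectin list 4 of 9 genes were tested, with a median of 0.11. Lgals1 was the highest at 1533 RPKM and −0.04 ± 0.22, and Lgals3bp, a glycoprotein bound by galectin-3, had 0.19 ± 0.29. Among other matricellular and matrix glycoproteins 17 of 29 genes were tested, 7 above and 10 below 0, with a median of −0.08. Tgfbi, a secreted adhesion protein, was both the highest in level, 47.4 RPKM, and the highest in difference, 0.20 ± 0.12, and the cartilage protein gene Comp was the lowest, −0.47 ± 0.33, from 99 reads over 8 libraries. Tgfbi stood above Thbs1, Sparc and Fn1 in RPKM.

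All 5 GPNMB relatives and MiT factors were tested, with a median of 0.03. MITF, TFE3, TFEB and TFEC are the basic helix-loop-helix factors that drive lysosomal and osteoclast genes. Tfe3 had the highest level at 15.4 RPKM with 0.03 ± 0.14, Mitf the highest difference, 0.12 ± 0.12, and Pmel, the melanosome protein gene related to Gpnmb, the lowest, −0.20 ± 0.30. The 14 genes that accompany Spp1, Gpnmb and Lgals3 in macrophages with the lipid receptor TREM2 had a median of −0.02, 5 above and 9 below 0. Ctsd, encoding cathepsin D, led them at 4722 RPKM with −0.02 ± 0.21, and the differences ran from −0.24 ± 0.25 for the tetraspanin gene Cd9 to 0.35 ± 0.73 for Apoe. Apoe varied most between libraries, from 28.9 to 271 RPKM, and was highest in Elmo1-/- mouse 1, the mouse that was also highest in Lgals3.

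**Figure D5:**
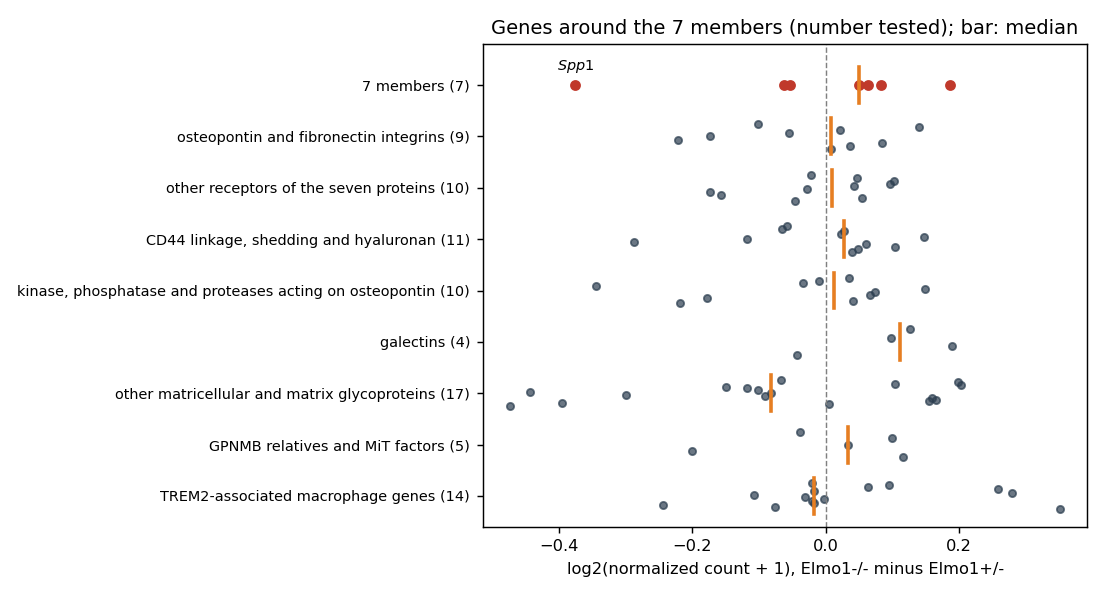
Difference between the genotypes (Elmo1-/- minus Elmo1+/-) in log2(normalized count + 1) for each tested gene of 8 lists around the 7 genes and for the 7 themselves, 1 point per gene, with an orange bar at the median. No point passed the adjusted test, and Spp1 at −0.38 lies below all but 3 of the list genes, Comp, Nid1 and Cyr61, of −0.47, −0.44 and −0.40.

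Overlapping gene models had almost no reads of their own. Fn1 shares 292 bases with Apol7d on the opposite strand, at 0 reads, and Thbs1 shares 208 bases with the noncoding Gm29233 on the opposite strand, at 1 read. Gm23731 lies opposite Cd44 with no shared exon base. The strand setting of the counting was not given in the sources used here.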

How the data were processed

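mRNA libraries (TruSeq) of 8 osteoclast cultures, 1 per mouse, were sequenced by the authors as 75 bp paired-end reads. FastQC, STAR, featureCounts and DESeq2 are named in the submitters' processing notes, while versions, genome build and strand setting were not given in the sources used here. As deposited by the authors, the values are a normalized signal, made by dividing read counts through a DESeq2 size factor of the library. Their table also holds their own comparison of the genotypes (fold changes, test statistics and p-values), which was not used. Undoing the size factors gave whole reads for 100% of values within 0.01 of a read. Between 20905502 and 40846651 reads lay on genes per library. No 2 libraries of a genotype were copies, with a chi-square per gene of 8.58 to 188. Groups were taken from the genotype labels. By the methods of the study, each of 2 experiments used 2 mice of each genotype, without saying which.

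Symbols, positions and exon lengths came from GENCODE mouse release 21 (GRCm38), which matched 46005 of 46517 identifiers. In the gene lists Tmem2, Cyr61, Ctgf and Nov were matched under newer symbols, and Lgals6 was not matched. RPKM was computed from the recovered reads, merged exon lengths and reads on genes. Genotypes were compared with limma 3.58.1 (R 4.3.3; eBayes with trend and robust options). Its input was log2(normalized count + 1) of the 14139 genes that reached 10 in 4 or more libraries. P-values were adjusted over all of them after Benjamini and Hochberg, with a threshold of 0.05. Since this unit is not counts, edgeR 4.0.16 and DESeq2 1.42.0 on the recovered reads were alternatives. For single genes an exact two-sided permutation test over 70 arrangements was added, without adjustment, and, after the data were seen, one within the 4 pairs of replicate numbers (16 arrangements). Fold changes are on the log2(normalized count + 1) scale, which slightly understates changes of low genes. Other alternatives were equal totals, TMM factors, pseudocounts of 0.5 and 8, no filter or a filter at 50, omission of each mouse, the replicate number as a block, and the pairs of numbers as a term or alone. The fitting steps were tested on simulated data.

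Same-numbered libraries deviated together from their genotype means (correlations across genes of 0.703, 0.156, 0.598 and 0.520), all above the 0.1 set as the limit. Only libraries of the same number were compared in this way. The split along the first component, seen in both genotypes, can also give such correlations. These values therefore cannot show that the mice of 1 number belong together. Pairs of the same number were used only in alternatives, and the main tests treated the mice as unpaired. The pairing comes from the replicate numbers of the titles.

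Named were the 7 genes, Elmo1, the gene of each list with the highest RPKM and those with the highest and lowest difference, and the 3 genes most like each of the 7. Other genes (such as Acp5, Fam20c, Itgb3, Calcr, Col3a1, Col5a1, Col6a3, Pdgfrb and Nid1) were named after their values were seen. The 7 genes and the lists were chosen with earlier results of these data known. The p-values measure the spread between these cultures. Figures were drawn with matplotlib 3.10.9.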

Additional observations from a re-analysis of the deposited data

Results flagged for a closer look

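One value lay far from the others of its group. Spp1 in Elmo1+/- mouse 1, with a normalized count of 153005, stood apart from the other Elmo1+/- libraries by 0.831 of the whole range of the 4 libraries. It was flagged among 16 groups of 4 examined, 7 genes and Elmo1 in 2 genotypes, and chance flags about 1 in 20 such groups. Without this mouse the log2 difference of Spp1 was −0.28 in place of −0.38.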

How the results depend on the processing

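None of the 7 genes passed the adjusted test under any alternative run, and their adjusted p-values lay between 0.936 and 1.000 (limma, edgeR or DESeq2). Spp1, Gpnmb and Sparc kept their direction under every alternative run. Spp1 lay between −0.51 (libraries 1 and 2 alone) and −0.24 (libraries 3 and 4 alone), and between −0.44 and −0.27 when 1 mouse was left out, with unadjusted p-values of 0.0012 to 0.0785. With the replicate number as a block the log2 difference of Spp1 was −0.38 with an unadjusted p of 0.0012 and an adjusted p of 0.9998, and the block changed no adjusted call for the 7 genes or their lists. The exact permutation p of Spp1 was 0.0286 over all arrangements and 0.125 within pairs, which cannot give less. Leaving out 1 mouse turned the direction of Cd44 (−0.063 to 0.24), Lgals3 (−0.20 to 0.011), Fn1 (−0.20 to 0.31) and Thbs1 (−0.20 to 0.046), with Gpnmb at 0.038 to 0.17 and Sparc at 0.0069 to 0.45. Fn1 was −0.00081 in edgeR and −0.22 in libraries 1 and 2 alone, and Thbs1 was 0.13 in libraries 3 and 4 alone. The cause was not tested. Calls over all genes came to 1 except for 2, Elmo1 and Gpr137b-ps, in DESeq2, in libraries 3 and 4 alone and without Elmo1+/- mouse 2 (range on leaving out a mouse 1 to 2). The 133 genes whose groups did not overlap became 258 without a filter, because more genes were examined. They became 216 to 622 with 1 mouse fewer, 622 without Elmo1-/- mouse 1. With fewer mice in a group non-overlap is easier to reach, so a rise is no trait of the mouse left out. Equal totals and TMM moved the median of all genes to 0.0033 and −0.0043 from −0.0031, and Spp1 did not overlap under either. With the longest transcript as length, Sparc was at 4.24 and Fn1 at 2.24 RPKM.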
